A study of Homo sapiens with 12 samples.

Results

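Bone morphogenetic protein (BMP) signalling was described through 10 genes of the endothelial pathway: the ligands BMP4 and BMP6, the receptors BMPR2 and ACVRL1 with the co-receptor ENG, the inhibitory SMADs SMAD6 and SMAD7, and the target genes ID1, ID2 and ID3. They were chosen by name as members of this pathway, and they are 10 of the 23398 gene entries of the deposited table. All 10 passed the filter on low counts, as did 14334 genes in all. The cells were human brain microvascular endothelial cells, bought from Cell Systems as a culture and grown in that supplier's complete medium. All groups were transfected for 48 h, either with a non-silencing siRNA or with siGlut1, an siRNA against the glucose transporter GLUT1 (gene SLC2A1), and were kept in control or high glucose, whose concentrations are not stated. The non-silencing siRNA in control glucose, siGlut1 in control glucose and siGlut1 in high glucose gave 3 libraries each. The non-silencing siRNA in high glucose gave 2, because its column numbered 2 equals the mean of columns 1 and 3 in 23397 of the 23398 entries, all 10 BMP genes included, and was left out. Nothing says that the libraries of a group came from separate cultures or donors, so the p-values measure the spread between these libraries, which may be technical.

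In endothelium, BMP ligands bind a complex of a type 2 receptor such as BMPR2 and a type 1 receptor such as ACVRL1 (ALK1), with endoglin (ENG) as a co-receptor that presents the ligand. The complex phosphorylates SMAD1, SMAD5 and SMAD9, which enter the nucleus with SMAD4 and switch on the ID genes and the feedback inhibitors SMAD6 and SMAD7. ID proteins bind E proteins and keep them off DNA. Inherited loss of ENG or ACVRL1 function is a cause of hereditary haemorrhagic telangiectasia, a disease of malformed vessels that also affects the brain, and loss of BMPR2 function is a cause of pulmonary arterial hypertension.

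The 250 bases before the transcription start are shown for the co-receptor that passed the test (ENG), for the receptor BMPR2 and for the 3 direct targets (ID1, ID2, ID3). BMPR2 is shown because its siRNA differences had opposite signs in the 2 media, though neither they nor their interaction passed. The bases are read 5′ to 3′ on the gene's strand from RefSeq on GRCh38.p14. Capitals mark GGCGCC, the core of BMP-responsive elements, and CAGAC, the SMAD box, or its reverse complement GTCTG. The windows are chr9:127854659-127854908 on the minus strand for ENG, chr2:202376077-202376326 on the plus strand for BMPR2, chr20:31605039-31605288 on the plus strand for ID1, chr2:8681806-8682055 on the plus strand for ID2 and chr1:23559502-23559751 on the minus strand for ID3.
ENG: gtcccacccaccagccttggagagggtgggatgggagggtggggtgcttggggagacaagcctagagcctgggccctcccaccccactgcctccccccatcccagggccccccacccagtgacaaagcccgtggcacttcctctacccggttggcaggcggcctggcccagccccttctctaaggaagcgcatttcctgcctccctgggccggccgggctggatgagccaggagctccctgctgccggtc
BMPR2: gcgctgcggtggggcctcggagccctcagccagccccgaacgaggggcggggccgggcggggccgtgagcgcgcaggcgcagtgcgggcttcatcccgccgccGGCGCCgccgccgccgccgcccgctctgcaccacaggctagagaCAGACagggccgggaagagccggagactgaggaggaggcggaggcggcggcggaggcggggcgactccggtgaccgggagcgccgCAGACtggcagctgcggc
ID1: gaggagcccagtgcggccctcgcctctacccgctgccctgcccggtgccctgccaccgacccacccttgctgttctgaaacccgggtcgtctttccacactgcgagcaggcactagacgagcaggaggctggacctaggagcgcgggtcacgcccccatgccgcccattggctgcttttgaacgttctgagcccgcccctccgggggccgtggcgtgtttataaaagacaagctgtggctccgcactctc
ID2: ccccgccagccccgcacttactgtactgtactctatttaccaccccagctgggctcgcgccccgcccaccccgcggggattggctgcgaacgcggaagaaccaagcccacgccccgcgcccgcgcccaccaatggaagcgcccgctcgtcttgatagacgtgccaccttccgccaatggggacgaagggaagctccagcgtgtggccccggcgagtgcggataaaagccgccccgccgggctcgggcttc
ID3: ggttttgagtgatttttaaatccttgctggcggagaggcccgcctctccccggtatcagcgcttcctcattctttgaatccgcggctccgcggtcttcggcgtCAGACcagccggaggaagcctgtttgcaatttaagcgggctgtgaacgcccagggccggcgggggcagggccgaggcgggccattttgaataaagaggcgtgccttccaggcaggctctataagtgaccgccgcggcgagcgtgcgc
Of the 10 genes, 9 had an entry, with 13 windows between them, and ACVRL1 had none. GGCGCC lay in a window of 2 of these 9 genes, BMPR2 and BMP4, and in 16.4% of all 35116 human windows of this length. CAGAC or GTCTG lay in a window of 4 of them, BMPR2, BMP4, ID3 and SMAD7, and in 38% of all windows. These are matches of letters in a short window only. The element of ID1 that responds to BMP is known to lie farther upstream than the bases shown.

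Libraries held 40135082 to 90536476 counts, with a median of 49686182. SLC2A1, the siRNA target, averaged 23.9 and 7.96 CPM (counts scaled to a common library size) with non-silencing siRNA and siGlut1 in control glucose, and 20.9 and 6.88 in high glucose. Its log2 fold change was -1.58 ± 0.13 (SE) in control glucose and -1.61 ± 0.14 in high glucose, with adjusted p of 0.000898 and 0.0009 in edgeR's quasi-likelihood test. All 10 endothelial markers checked passed the filter on low counts, and CDH5 (VE-cadherin) and PECAM1 had medians of 1664 and 904 CPM. Of the markers of other cells, astrocyte genes summed to at most 0.153 CPM and leukocyte genes to at most 1.42 CPM in any library, and fibroblast genes to at most 4.17 CPM. Neuronal genes summed to 31.6 to 46.9 CPM, epithelial genes to 33.8 to 110.6 CPM (with CDH1 and KRT5 at 0) and lymphatic endothelial genes to 133 to 244 CPM (with PDPN at 0). Nearly all of the neuronal sum was SYT1, at 31.2 to 46.7 CPM, and nearly all of the epithelial sum was KRT19, at 33.5 to 110 CPM. The pericyte list summed to 1517 to 2443 CPM, and nearly all of that was RGS5, while its defining receptor PDGFRB stayed at 0.042 to 0.363 CPM. The numbers are from bulk RNA, in which fewer cells of a type and less RNA per cell cannot be told apart.

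Per length of transcript, the 10 genes spanned a wide range. By the median over 11 libraries of the deposited RPKM, a read count scaled by transcript length and library size, the order was ENG at 409, ID3 at 110.5, BMP6 at 95.7, ACVRL1 at 77.5, BMP4 at 30.2, ID1 at 23.7, BMPR2 at 18.2, ID2 at 3.31, SMAD6 at 1.87 and SMAD7 at 0.973. The ranges over libraries of ID3, BMP6 and ACVRL1 overlapped between neighbours in this order, and so did those of BMP4, ID1 and BMPR2 and those of ID2 and SMAD6. Among the genes that passed the filter on low counts, ENG reached the 99.1th percentile by mean RPKM, and SMAD7 the 21.6th. Genes that failed the filter were left out of this ranking. Relative to the genes that passed, these cells thus held much RNA of the co-receptor and little of the feedback SMADs or of ID2. Among the other parts of the machinery, the type 1 receptor ACVR1 stood at a median of 20.5 RPKM and SMAD1 at 27.4 RPKM. BMPR1A, another type 1 receptor, was at 0 to 12 counts per library; it has pseudogene copies, so that its level is uncertain. The levels between genes were compared as RPKM only, and the values below are CPM scaled by TMM factors (trimmed mean of M values), which compare libraries for the same gene.

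**Figure D1:**
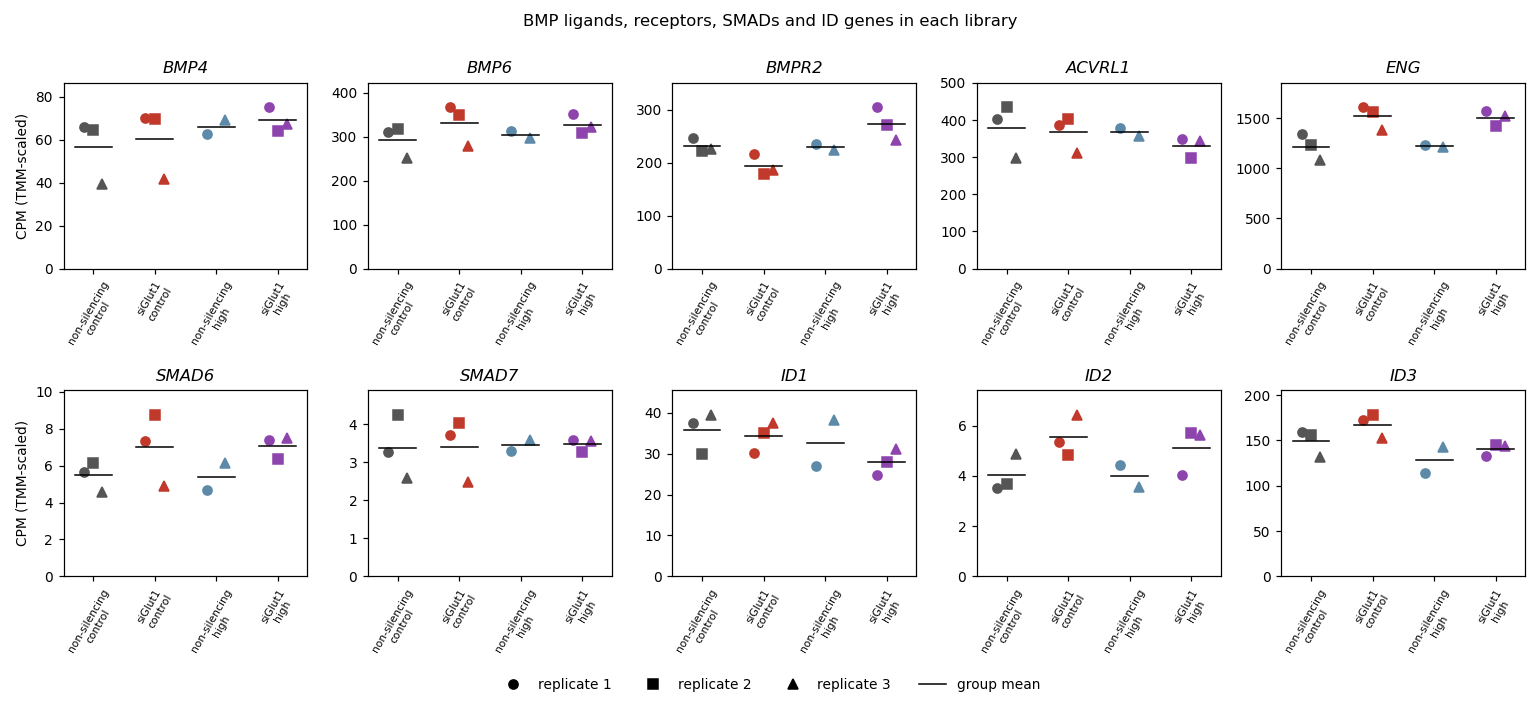
CPM of each of the 10 genes (vertical axes start at 0) in each of the 11 libraries, 1 panel per gene, with points for libraries (a shape per replicate number) and horizontal lines for group means. In the ENG panel, all 6 siGlut1 libraries (1382 to 1614 CPM) lie above all 5 non-silencing libraries (1082 to 1342 CPM), and in the BMPR2 panel siGlut1 lies below the control in control glucose and above it in high glucose.

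The co-receptor ENG (chr9:130577291-130617047 in hg19, a transcript length of 3196 bases) rose with siGlut1 in the average of both media. In control glucose it stood at 1342, 1229.9 and 1082 CPM with non-silencing siRNA and at 1614, 1559 and 1382 CPM with siGlut1. In high glucose it stood at 1229.7 and 1213 CPM with non-silencing siRNA and at 1570.3, 1425 and 1527 CPM with siGlut1. The lowest siGlut1 library of either medium lay above the highest non-silencing library of either medium, at 1382 against 1342 CPM. The share of all tested genes that separate in this way across both media was not counted. The log2 fold change was 0.32 ± 0.086 (SE, adjusted p = 0.0736) in control glucose and 0.30 ± 0.097 (adjusted p = 0.106) in high glucose, neither past the threshold of 0.05. Averaged over both media it was 0.31 ± 0.065, a 1.24-fold rise with a 95% interval of 0.17 to 0.45 on the log2 scale, and it passed the test (adjusted p = 0.00955, edgeR quasi-likelihood, Benjamini-Hochberg over 14334 genes). ENG kept this call in all 20 alternatives, with log2 fold changes of 0.27 to 0.35 and adjusted p of 0.000413 to 0.0481. For high against control glucose averaged over both siRNAs, ENG was at -0.0033 ± 0.065 on the log2 scale (95% interval -0.15 to 0.14).

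Of the 10 genes, ENG was the only call for siGlut1 averaged over the media, 1 of 10 where 14.4% of all tested genes were called (7.93% higher and 6.49% lower). A share of this size near the background is no result about the 10 genes as a set. At an unadjusted p under 0.05 stood 3 of the 10, ENG, ID2 and SMAD6, and 29.5% of all genes. The median log2 fold change of the 10 was 0.11, against -0.0045 over all tested genes. Within control glucose none of the 10 was called by edgeR where 2.96% of all genes were, with 3 of 10 at an unadjusted p under 0.05 (17.4% of all genes) and 1 called by DESeq2. The groups of ENG and BMPR2 did not overlap, 2 of 10 where 20.5% of all genes had such groups. Within high glucose none was called where 4.11% of all genes were, with 2 of 10 at an unadjusted p under 0.05 (20.8% of all genes) and 0 called by DESeq2. The groups of ENG, BMPR2, SMAD6 and ACVRL1 did not overlap, 4 of 10 where 44.5% of all genes had such groups, a high share with 1 group of 2 libraries. Of the 10 endothelial markers, 2 also rose in that average: KDR (VEGF receptor 2) by 0.31 and TEK (the angiopoietin receptor TIE2) by 0.29 on the log2 scale (adjusted p = 0.0164 and 0.0144). Without non-silencing high 3 neither passed (0.29 with adjusted p = 0.081 for KDR, 0.25 with adjusted p = 0.0828 for TEK). The junction genes CDH5, at 0.19 (adjusted p = 0.0752), and PECAM1, at 0.11 (adjusted p = 0.47), did not pass. Of the 10 markers, 6 had positive and 4 negative differences (VWF, EMCN, CLDN5 and ESAM, none of them called), with a median of 0.086. The summed endothelial markers overlapped between groups, at 5140.3 to 8092 CPM with non-silencing siRNA and 5781 to 7495 CPM with siGlut1 in control glucose, and at 6124 to 6235 and 6064 to 7527 CPM in high glucose. The summed pericyte list was lower with siGlut1, at 1845 to 2170 CPM against 1517 to 1623 CPM in control glucose and 2379 to 2443 CPM against 1704 to 2044 CPM in high glucose, and RGS5 fell by 0.35 on the log2 scale (adjusted p = 0.00395). The sum follows RGS5: of the 6 markers tested, 4 had positive and 2 negative log2 differences in the average of both media, with a median of 0.069, and RGS5 was the only call. The lymphatic list summed to 148 to 213 CPM with non-silencing siRNA and 210 to 244 CPM with siGlut1 in control glucose, and to 133 to 147 and 144 to 235 CPM in high glucose. All 3 of its tested genes had positive averaged differences (median 0.46), and FLT4 (VEGF receptor 3) rose by 0.48 (adjusted p = 0.00503), while LYVE1, at 0.46 (adjusted p = 0.061), and PROX1, at 0.28 (adjusted p = 0.245), did not pass. The part of these markers in the ENG difference was not tested.

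**Figure D2:**
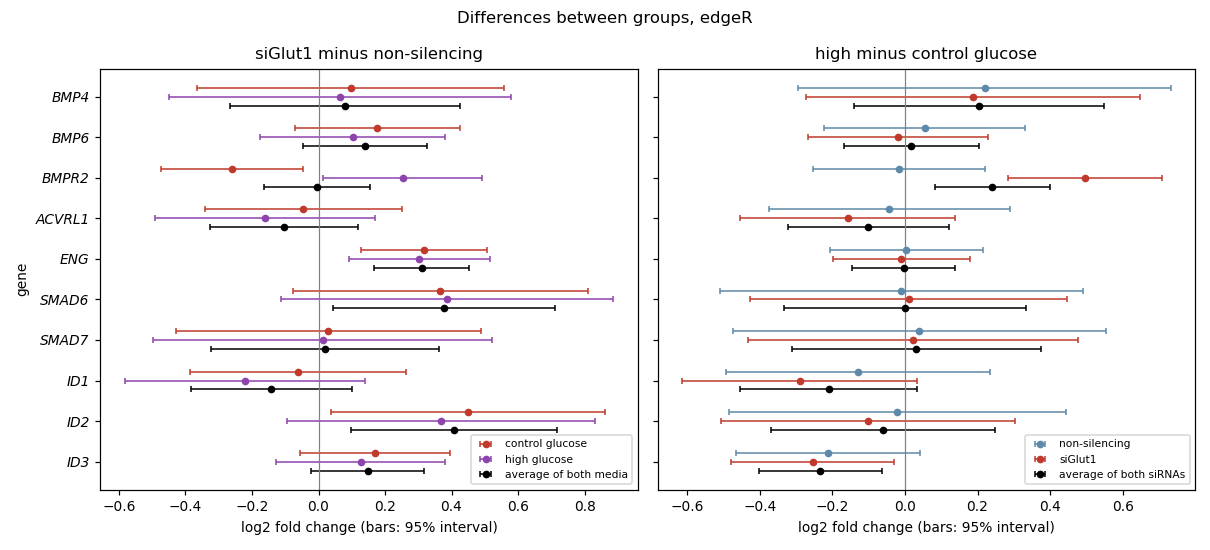
Log2 fold changes (horizontal axes) of the 10 genes for siGlut1 minus non-silencing siRNA (left) and high minus control glucose (right), as points with 95% intervals, within each condition and averaged (black). ENG lies to the right of 0 on the left panel in both media and at 0 on the right panel, while the points of BMPR2 lie on opposite sides of 0 in the 2 media.

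The type 2 receptor BMPR2 (chr2:203241050-203432474, 12070 bases, the longest of the 10 transcripts) differed in opposite directions in the 2 media. In control glucose it stood at 246, 223 and 226 CPM with non-silencing siRNA and at 217, 178 and 185 CPM with siGlut1. In high glucose it stood at 235 and 224 CPM with non-silencing siRNA and at 306, 272 and 243 CPM with siGlut1. All siGlut1 libraries were below the non-silencing ones in control glucose and above them in high glucose, without overlap in either. Groups without overlap were found for 20.5% of all tested genes in control glucose and 44.5% in high glucose. The share of genes that separate in opposite directions in the 2 media was not counted. The log2 fold changes of siGlut1 were -0.26 ± 0.097 (adjusted p = 0.181) in control glucose and 0.25 ± 0.11 (adjusted p = 0.215) in high glucose, so neither passed. Their average was -0.0036 ± 0.073, since the signs were opposite.

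The interaction for BMPR2, the siRNA difference in high glucose minus that in control glucose, was 0.51 ± 0.15 on the log2 scale (95% interval 0.19 to 0.83). Its unadjusted p was 0.00452 and its adjusted p 0.999, so it did not pass over all genes. By edgeR the interaction called 0 of the 10 genes and 0% of all tested genes, with 1 of the 10 and 2.75% of all genes at an unadjusted p under 0.05, and DESeq2 called 0 of the 10. Read across glucose, BMPR2 was 0.50 ± 0.097 higher in high than in control glucose with siGlut1 (95% interval 0.28 to 0.71, unadjusted p = 0.000292, adjusted p = 0.124), which is 1.41-fold. With non-silencing siRNA it differed by -0.016 ± 0.11. DESeq2 called the first of these (0.51, adjusted p = 0.00116), as did edgeR without both control-glucose libraries numbered 3 (0.47, adjusted p = 0.0397).

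Fold changes were correlated with transcript length in 3 of the comparisons described for BMPR2, and hardly in that of siGlut1 in control glucose. Across the 14334 tested genes, Spearman's rho between length and log2 fold change was 0.38 for high against control glucose with siGlut1, 0.24 for siGlut1 in high glucose, 0.39 for the interaction and -0.06 for siGlut1 in control glucose. With the trend of each library on length removed by an offset, the BMPR2 difference between glucose levels with siGlut1 went from 0.50 to 0.21. The siGlut1 difference in high glucose went from 0.25 to 0.028, that in control glucose from -0.26 to -0.20, and the interaction from 0.51 to 0.22. The other end of the length range held the ID genes, at 1232 to 1364 bases: with siGlut1, the glucose difference went from -0.29 to -0.18 for ID1 and from -0.25 to -0.14 for ID3. ENG was nearly unmoved, at 0.31 before and after in the average of both media. Whether length itself, or RNA quality that would act through it, set these values was not tested.

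**Figure D3:**
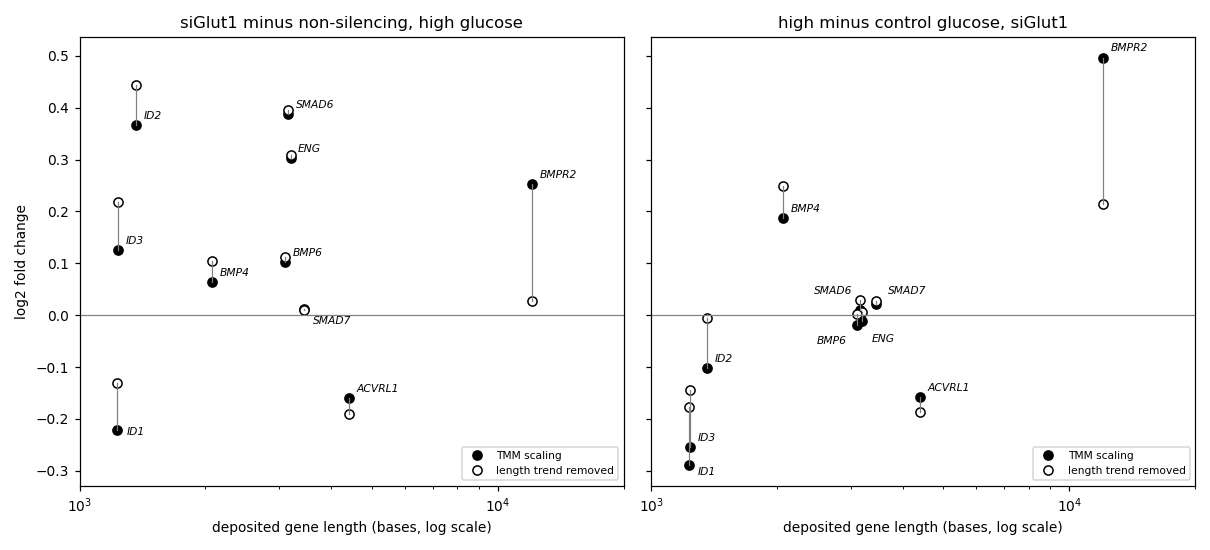
Log2 fold change of each of the 10 genes (vertical axis) against deposited transcript length in bases (horizontal log axis), for siGlut1 in high glucose (left) and for high glucose with siGlut1 (right), with filled points for TMM scaling and open points after removing each library's trend on length. BMPR2, at 12070 bases, moves from 0.25 to 0.028 on the left and from 0.50 to 0.21 on the right, while the shorter ENG stays near its place.

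The type 1 receptor ACVRL1 (chr12:52301202-52317145, 4404 bases), which binds BMP9 and BMP10 with high affinity in endothelium, showed no call in the main edgeR fit. It stood at 404, 436 and 299 CPM with non-silencing siRNA and 387, 402 and 313 CPM with siGlut1 in control glucose, with full overlap. In high glucose the 2 non-silencing libraries were at 379 and 357 CPM and the siGlut1 libraries at 348, 297 and 343 CPM, just below them. The log2 fold change was -0.045 ± 0.14 in control and -0.16 ± 0.15 in high glucose, and the average of -0.10 (95% interval -0.32 to 0.12) allowed a fall or a small rise. The interval of ENG began above 0 and that of ACVRL1, the receptor it works with, spanned it, but the difference between the 2 genes was not tested.

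Of the ligands, BMP6 (chr6:7727011-7881961, 3105 bases) was the more abundant. With non-silencing siRNA and siGlut1 it stood at 311, 318 and 252 CPM and at 368, 348 and 279 CPM in control glucose, and at 312 and 298 CPM and at 351, 308 and 323 CPM in high glucose. The groups overlapped in both media, and the averaged log2 difference was 0.14 ± 0.085 (adjusted p = 0.305). BMP4 (chr14:54416455-54423554, 2073 bases) stood at 66.0, 64.6 and 39.5 CPM with non-silencing siRNA and 70.0, 69.8 and 41.7 CPM with siGlut1 in control glucose, and at 62.8 and 69.0 CPM and 75.3, 64.1 and 67.5 CPM in high glucose. Its averaged siRNA difference was 0.081 ± 0.16 (adjusted p = 0.776). The glucose difference of BMP4, 0.20 averaged over the siRNAs (adjusted p = 0.542), rested on the 2 control libraries numbered 3 and was -0.0012 without them. BMP2 was present at a median of 15.8 CPM, and BMP3, BMP5, BMP7, BMP10 and GDF2 (BMP9) were listed at 0 in every library.

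The inhibitory SMADs were scarce, at 114 to 688 counts per library. SMAD6 (chr15:66994674-67074337, 3157 bases), which blocks the BMP branch in particular, stood at 5.64, 6.17 and 4.60 CPM with non-silencing siRNA and 7.34, 8.77 and 4.91 CPM with siGlut1 in control glucose. In high glucose it stood at 4.67 and 6.16 CPM and at 7.38, 6.37 and 7.51 CPM. The siGlut1 libraries were above the others in high glucose, and overlapped them in control glucose because of siGlut1 control 3. Its averaged log2 difference was 0.38 ± 0.15 (unadjusted p = 0.0301, adjusted p = 0.124), and it passed without siGlut1 control 3 (0.48, adjusted p = 0.0282) and without both control libraries numbered 3 (0.41, adjusted p = 0.0273). These were the only 2 of 20 alternatives in which SMAD6 passed, and the difference ranged from 0.27 to 0.48 over the 20. SMAD7 (chr18:46446223-46477081, 3444 bases), which inhibits both the BMP and the TGF-beta branch, stood at 2.48 to 4.25 CPM in all libraries, and its averaged difference was 0.021 ± 0.16 (95% interval -0.32 to 0.36).

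None of the 3 ID genes passed a test in the main edgeR fit, and the signs of their siRNA differences were not the same. ID1 (chr20:30193086-30194317, 1232 bases), the classic BMP target in endothelium, stood at 37.6, 29.9 and 39.5 CPM with non-silencing siRNA and 30.2, 34.9 and 37.5 CPM with siGlut1 in control glucose, and at 27.0 and 38.2 CPM and 24.8, 28.0 and 31.1 CPM in high glucose. The groups overlapped throughout, and the averaged log2 differences were -0.14 ± 0.11 for siGlut1 (adjusted p = 0.435) and -0.21 ± 0.11 for high glucose (adjusted p = 0.363). ID3 (chr1:23884421-23886285, 1239 bases) stood at 160, 156 and 131 CPM with non-silencing siRNA and 172, 178 and 152 CPM with siGlut1 in control glucose. In high glucose it stood at 114 and 143 CPM and at 133, 145 and 143 CPM. With siGlut1, every high-glucose library of ID3 lay below every control-glucose library (152 CPM at the lowest). Its glucose difference was -0.25 ± 0.10 with siGlut1 (unadjusted p = 0.0301, adjusted p = 0.281) and -0.21 ± 0.12 with non-silencing siRNA (adjusted p = 0.919), and -0.23 ± 0.077 averaged (adjusted p = 0.187). Without non-silencing control 3, the averaged difference of ID3 was -0.28 and passed (adjusted p = 0.0462), and without both control libraries numbered 3 it was -0.31 (adjusted p = 0.0114). These were the only 2 of 20 alternatives in which ID3 passed, and the difference ranged from -0.32 to -0.15 over the 20. With the length trend removed it was -0.17 (adjusted p = 0.32 in edgeR).

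ID2 (chr2:8822113-8824583, 1364 bases) had higher group means with siGlut1 in both media and did not pass in the main edgeR fit. It stood at 3.51, 3.69 and 4.88 CPM with non-silencing siRNA and 5.34, 4.82 and 6.43 CPM with siGlut1 in control glucose, and at 4.42 and 3.55 CPM and 4.04, 5.71 and 5.62 CPM in high glucose. Only siGlut1 control 2, at 4.82 CPM, and siGlut1 high 1 lay within the non-silencing range of their medium. The averaged log2 difference was 0.41 ± 0.14, or 1.33-fold (95% interval 0.098 to 0.72, unadjusted p = 0.0143, adjusted p = 0.077 in edgeR, 0.0399 in DESeq2). It passed without siGlut1 high 1 (0.48, adjusted p = 0.0441) and without non-silencing control 3 (0.49, adjusted p = 0.0317). In all, ID2 passed in 6 of 20 alternatives and not in the others, with differences of 0.33 to 0.49 over the 20. A related entry, ID2B, is a pseudogene that could share reads with ID2, so this low count is uncertain.

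In high against control glucose the 10 genes showed 0 calls in the main edgeR fit with either siRNA. With non-silencing siRNA, 0% of all tested genes were called, none of the 10 reached an unadjusted p under 0.05 (5.4% of all genes did), the groups of all 10 overlapped (17.8% of all genes had groups that did not) and DESeq2 called 0 of the 10. With siGlut1, 0.014% of all genes were called by edgeR, BMPR2 and ID3 had an unadjusted p under 0.05 (15.2% of all genes did), and DESeq2 called BMPR2 only. The groups of these 2 genes did not overlap, as for 22.5% of all genes. Averaged over both siRNAs, edgeR called 0.412% of all genes and 0 of the 10, the same 2 genes had an unadjusted p under 0.05 (16.9% of all genes did), and DESeq2 called 0 of the 10.

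Libraries numbered 3 of the control medium stood apart for most of these genes. In both siRNA groups that library was the lowest of its group for 7 of the 10 genes, namely ENG, ACVRL1, BMP4, BMP6, ID3, SMAD6 and SMAD7, and the highest for ID1 and ID2. Over all tested genes it was the lowest in both groups for 26.5% and the highest in both for 27%. BMP4 shows this most plainly, at 39.5 and 41.7 CPM in these 2 libraries and 62.8 to 75.3 CPM in the other 9. Nothing in the labels says how they differ from the rest.

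**Figure D4:**
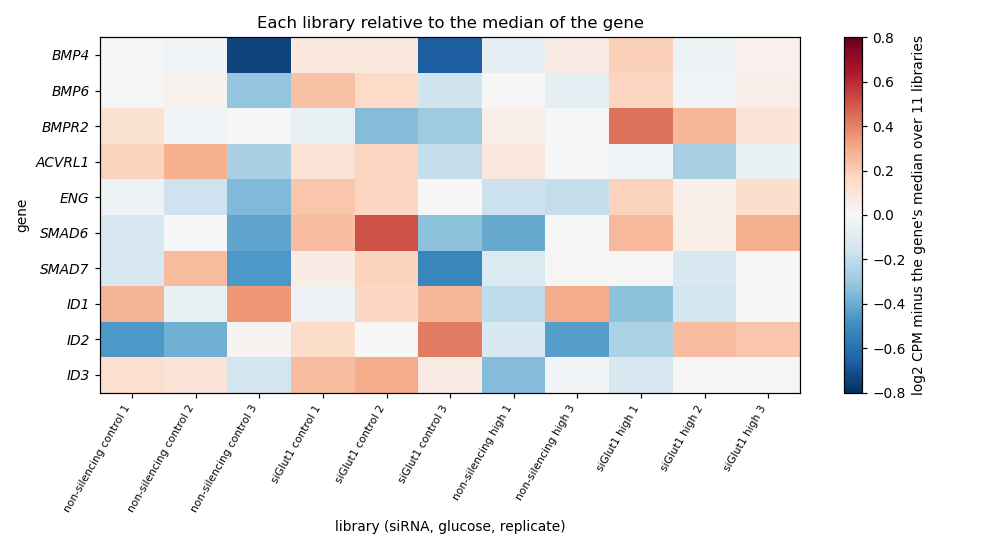
Log2 CPM of each of the 10 genes (rows) in each of the 11 libraries (columns) minus the median of that gene, on a colour scale from -0.8 to 0.8. The columns of the control libraries numbered 3 are the lowest of their own group for 7 genes and the highest for ID1 and ID2. The ENG row is higher in all siGlut1 columns.

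By the likeness of log2 CPM over the 11 libraries, the 5 tested genes closest to ID1 were HOTAIRM1 (Pearson's r = 0.97), CCDC57 (0.94), GPS1 (0.93), TRIM8 (0.93) and SRSF6 (0.93), out of 11479 genes with a mean of at least 2 CPM. Among those closest to BMP4 were PTTG1IP (0.95), CHPF2 (0.93), ASXL1 (0.92) and ASPHD2 (0.91). None of these is a component of the pathway, and the values describe libraries that share groups and the low or high position of the control libraries numbered 3.

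The remaining pathway was read from a list of 58 other BMP genes, of which 42 passed the filter. For siGlut1 averaged over the media, 7 of the 42 rose and 0 fell, where 7.93% of all tested genes were called higher and 6.49% lower, with a median of 0.022 against -0.0045 over all genes. These were the ligand GDF6, the receptor ACVR1, the intracellular ubiquitin ligase SMURF1, the secreted antagonists FSTL1 and GREM1, and the targets ATOH8 and HEY2. The count rests on the 2 non-silencing high-glucose libraries, with 3 left without non-silencing high 1 and 2 without non-silencing high 3. In control glucose GDF6 alone was called (2.96% of all genes were), and in high glucose GDF6 and ACVR1 (4.11% of all genes were), both higher, a count that was 0 without either of those 2 libraries. None of the 42 was called by edgeR for high against control glucose with either siRNA or for the interaction, where 2 with non-silencing siRNA, 6 with siGlut1 and 2 for the interaction had an unadjusted p under 0.05 (5.4%, 15.2% and 2.75% of all genes), and DESeq2 called 0, 2 and 0.

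GDF6, a ligand of the BMP family, had the largest difference among those with more than a few counts. Its mean went from 1.54 to 3.87 CPM in control glucose, a log2 fold change of 1.33 ± 0.16 (adjusted p = 0.00288), and from 1.46 to 3.78 CPM in high glucose, 1.38 ± 0.18 (adjusted p = 0.00413). The average, 1.35 (adjusted p = 0.000111), kept its call in all 20 alternatives, and the high-glucose call ended without non-silencing high 1 (1.34, adjusted p = 0.0641) or 3 (1.42, adjusted p = 0.0713). ACVR1 (ALK2), the BMP type 1 receptor with a broad tissue range, had group means of 62.0 and 69.3 CPM in control glucose and of 59.4 and 72.5 CPM in high glucose for non-silencing siRNA and siGlut1. In high glucose alone its log2 fold change was 0.29 ± 0.065 (adjusted p = 0.0338), a call that ended under 11 of 21 alternatives, among them the replicate block (adjusted p = 0.0544), no filter on low counts (adjusted p = 0.0553) and leaving out any 1 of 8 libraries (adjusted p = 0.056 to 0.256). Its averaged log2 fold change of 0.22 ± 0.043 (adjusted p = 0.00659) also kept its call in all 20 alternatives.

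The targets and antagonists held less firmly. ATOH8, a transcription factor induced by BMP9 in endothelium, was 0.66 higher on the log2 scale (adjusted p = 0.0188), and its call ended without non-silencing high 1 (0.69, adjusted p = 0.0632) or 3 (0.63, adjusted p = 0.0845). HEY2, a target shared with Notch, was 1.07 higher (adjusted p = 0.0384), with 36 to 240 counts per library, and lost its call when any 1 of 7 libraries was left out, with values of 0.81 to 1.25 and adjusted p up to 0.157. FSTL1, which binds BMP4, was 0.25 higher (adjusted p = 0.01) and lost its call without non-silencing high 3 (0.21, adjusted p = 0.0649). SMURF1, which marks BMP SMADs and receptors for breakdown, was 0.22 higher (adjusted p = 0.0206) and lost its call without non-silencing high 1 (0.22, adjusted p = 0.0843), non-silencing high 3 (0.23, adjusted p = 0.0759) or siGlut1 high 2 (0.21, adjusted p = 0.0537). GREM1, a BMP antagonist, passed on 0 to 30 counts per library, with both non-silencing high-glucose libraries at 0, so no fold is given, and its adjusted p of 0.019 became 0.07 or 0.0735 without either of those libraries. Of the signal-carrying SMADs, 0 of 4 were called: SMAD1 was at -0.17 ± 0.11 (adjusted p = 0.336) and SMAD5 at 0.075 ± 0.067 (adjusted p = 0.502). Of the 3 E proteins that ID proteins bind, 0 were called, with TCF4 at -0.019 ± 0.092 (adjusted p = 0.914) and TCF12 at 0.15 ± 0.057 (adjusted p = 0.105). The third, TCF3, had the largest difference, 0.25, and came nearest to the threshold (adjusted p = 0.0539).

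The TGF-beta branch, which shares ENG, SMAD4 and SMAD7 with the BMP branch, had 2 of 12 components called for siGlut1 averaged over the media (14.4% of all genes were), with 5 positive and 7 negative differences and a median of -0.010. Both calls were higher: TGFB2, a ligand, at 0.73 (adjusted p = 0.00343) and TGFBR1 (ALK5), its type 1 receptor, at 0.55 (adjusted p = 0.00204). Of 10 of its target genes, 5 rose and 0 fell, where 7.93% of all genes were called higher, with a median of 0.22. TAGLN (transgelin), which binds actin, had the largest value, 1.36 ± 0.18 (adjusted p = 0.00102), followed by PMEPA1, a feedback inhibitor of TGF-beta SMADs, at 0.59 ± 0.11 (adjusted p = 0.00562). FN1, fibronectin, passed barely at 0.46 ± 0.14 (adjusted p = 0.05 after rounding) and lost its call under 9 of 20 alternatives, with adjusted p up to 0.178. CTGF, a matrix-associated growth factor, was at 0.35 ± 0.068 (adjusted p = 0.0073).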

How the data were processed

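mRNA libraries of 12 labelled samples were sequenced. The labels' protocols name both TruSeq stranded mRNA and SMARTER library kits, without saying which library had which. The authors deposited raw counts and RPKM values per gene with hg19 coordinates and transcript lengths, per the file headers. The submitters' processing notes name hg19 and DESeq2, while aligner, counter and strand use were not given in the sources used here. All 11 columns used hold only even counts. The 101 entries whose symbol appears more than once were left out, leaving 23297, and 0 columns were without a sample. Library totals were 40135082 to 90536476. If the even counts mean that each unit was counted more than once, these totals overstate the counting precision, which was not tested.

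From the deposited counts, 1 edgeR 4.0.16 quasi-likelihood fit (R 4.3.3, limma 3.58.1, TMM factors, filterByExpr) over the 4 groups, without a block, gave all tests, two-sided, with Benjamini-Hochberg adjustment over 14334 genes and a threshold of 0.05. It had 7 residual degrees of freedom. Levels between genes used the authors' deposited RPKM. Likeness used log2 CPM with a prior count of 2. Alternatives were DESeq2 1.42.0, its size factors, other filters, only the groups compared, all 12 columns, a replicate block, a length offset and leaving out libraries; the length offset together with the block was added after seeing the data. The alternative with all 12 columns adds no independent library, because the restored column equals the mean of 2 others in nearly all entries. The fit was tested on simulated data for siGlut1 in control glucose. It called 35 of 100 genes set at an absolute log2 fold change of 0.5, so most of these were missed. Of the genes set at 1 it called 73 of 100, and of those set at 0 it called 5 of 13975.

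Named were the 10 genes, SLC2A1, up to 4 genes past the threshold of each pathway list (or the 2 with most counts), and the 5 genes most like ID1 and BMP4 (1 of those for BMP4 is not reported here); other names (other ligands, BMPR1A, TCF12, ID2B and markers) were chosen after their values were seen. The 10 genes and the lists were chosen with earlier results of these data known.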

Additional observations from a re-analysis of the deposited data

Results flagged for a closer look

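BMPR2 was picked out because its siRNA difference went in opposite directions in the 2 media, with every siGlut1 library below the non-silencing ones in control glucose and above them in high glucose. Groups without overlap were found for 20.5% of all tested genes in control glucose and 44.5% in high glucose. The difference between the media was 0.51 ± 0.15 (SE) on the log2 scale. It was tested as an interaction in edgeR, with an unadjusted p of 0.00452 and an adjusted p of 0.999 over 14334 genes, so it did not pass the threshold. With the trend of each library on transcript length removed it was 0.22.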

How the results depend on the processing

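Of the 10 genes, the number past the threshold for siGlut1 in control glucose was 0 and became 1 with the replicate block, with DESeq2, with all 12 columns, and with the length trend removed together with the replicate block; that gene was ENG each time (0.32 with adjusted p = 0.0451 under the block). In high glucose the number was 0 and became 1, again ENG, with all 12 columns, with only the groups compared, and when both control libraries numbered 3 were left out, and ranged from 0 to 1 over the leave-outs, with 1 without non-silencing control 3. For high against control glucose with siGlut1 it was 0 and became 1, BMPR2, with DESeq2 and without both control libraries numbered 3. For siGlut1 averaged over the media it was 1 and became 2 with DESeq2, with all 12 columns and with the length trend removed, and 3 without both control libraries numbered 3. It ranged from 1 to 2 over the leave-outs; ENG was called throughout and ID2, SMAD6 or both were added. For glucose averaged over the siRNAs it was 0 and became 2 without both control libraries numbered 3 (ID3, and ACVRL1 at -0.22 with adjusted p = 0.0291), and ranged from 0 to 1 over the leave-outs. It stayed at 0 for the other 2 comparisons, and no called value changed sign. No other call of the 10 genes changed under the replicate block. The setting with all 12 columns restores a column that equals the mean of 2 others in nearly all entries. It adds no independent library, so calls gained under it are no added evidence.

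Replicate numbers are not described as shared batches. Same-numbered libraries correlated in their deviations from group means at -0.25 to 0.54, with a median of 0.12 and 9 of 15 pairs above 0.1, against a median of -0.081 and 7 of 30 for other pairs, and 4 of the 6 control libraries correlated best with their own number. This is a hint of shared numbers at most, because deviations within a group sum to 0 and the 2 sets of pairs are not independent. The condition for taking the numbers as pairs was that every same-numbered pair lay above 0.1, and it was not met. Calls over all genes varied more: 424 for siGlut1 in control glucose (70 when the fit held just the groups compared, 247 without both control libraries numbered 3, 824 with all 12 columns, 1003 with DESeq2, 561 with the block), and 131 to 343 over the leave-outs. In high glucose 589 became 1149, 1674, 1807 and 1259 in the same order, with 6 to 1077 over the leave-outs. For high glucose with siGlut1, 2 became 0, 735, 36 and 382. With non-silencing siRNA, 0 became 48 without both control libraries numbered 3, 11 with all 12 columns and 29 with DESeq2. Averaged over the media, 2066 became 3182 with all 12 columns and ranged from 1000 to 2497 over the leave-outs. Averaged over the siRNAs, 59 became 2583 without both control libraries numbered 3, 427 with all 12 columns and 508 with DESeq2, and ranged from 0 to 836 over the leave-outs. The causes were not tested. Groups of 2 or 3 limit every interval here, and counts of 114 to 688 per library limit SMAD6, SMAD7 and ID2.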
